A study of Mus musculus with 6 samples.

Results

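Gli3 binding sites (GBS) were described at the genes for axon guidance ligands and receptors. The genes were chosen by name: protein-coding genes of the GENCODE M21 annotation whose symbol begins with Sema, Plxna, Plxnb, Plxnc, Plxnd, Epha, Ephb, Efna, Efnb, Unc5 or Ntng, or is Slit, Robo, Ntn or Nrp followed by a number, or is *Dcc*. There were 73 of them among 21938 protein-coding genes on chromosomes 1 to 19, X and Y. A site was assigned to a gene when its midpoint lay within 50 kb of the transcription start site (TSS) of the gene or inside the gene, and 72 of 4114 listed sites (1.75%) met this rule. The sites came from chromatin immunoprecipitation and sequencing (ChIP-seq) with an antibody to Gli3 in dissected cortices of wild-type mouse embryos at embryonic day 15, with 3 Gli3 ChIP libraries and 3 libraries of input DNA. They were deposited as 1 joined list of positions in the mm10 build, called across the replicates, with no height, score or count. The list therefore gives no spread between replicates or embryos, and the depth is unknown. The tissue is whole dissected cortex, so the cells in which Gli3 was bound cannot be told apart.

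Growing axons and migrating neurons in the cortex are steered by cues on or from other cells. Semaphorins signal through plexins, often with neuropilins as coreceptors, ephrins through Eph receptor tyrosine kinases, Slits through Robos, and netrins through Dcc and the Unc5 receptors. The netrin-G proteins are tethered to the membrane and bind ligands of their own at synapses. Gli3 is a zinc finger transcription factor of the Sonic hedgehog pathway, which is processed to a repressor where the signal is absent, and Gli proteins recognise DNA around the core GACCACCCA.

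Of the 73 guidance genes, 39 (53.4%, 95% Wilson interval 42.1 to 64.4%) had at least 1 Gli3 site, against 25.2% of all protein-coding genes. At most genes the number was small. There were 19 guidance genes with 1 site, 13 with 2, 3 with 3, 2 with 4, 1 with 5 and 1 with 7. The Eph receptor gene *Ephb2* had the 7 sites and *Slit1* the 5. Sites lay over the start of 18 of the genes (24.7%), against 6.22% of all protein-coding genes. Among them were *Ephb2*, *Ephb3*, *Epha4*, *Ntn1*, *Plxnb1*, *Plxnc1*, *Robo2* and *Sema7a*, whereas neither neuropilin gene, *Dcc* nor *Slit2* had a site by the rule. Exact copies of the GLI core were present in sites of 8 of the genes (10.96%), against 3.77% of all protein-coding genes. Per site the share was no higher than elsewhere, at 11.1% of the sites of guidance genes and 12.3% of the other sites.

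The 8 exact GLI cores are shown first, because they are the places within the sites where the known recognition sequence of Gli proteins can be read. Each is given with 16 bases on either side, from the mm10 genome sequence, read 5′ to 3′ on the strand that carries the core, and the capitals mark the core.
*Efna2*, chr10:80152607-80152647, minus strand: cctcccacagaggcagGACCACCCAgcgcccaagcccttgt
*Efnb3*, chr11:69544238-69544278, plus strand: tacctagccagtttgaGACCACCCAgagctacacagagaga
*Ntn1*, chr11:68273109-68273149, plus strand: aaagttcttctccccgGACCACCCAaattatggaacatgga
*Ntn3*, chr17:24209627-24209667, plus strand: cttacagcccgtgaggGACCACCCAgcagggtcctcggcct
*Ntng1*, chr3:110011384-110011424, plus strand: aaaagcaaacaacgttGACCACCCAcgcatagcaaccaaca
*Sema4b*, chr7:80186582-80186622, plus strand: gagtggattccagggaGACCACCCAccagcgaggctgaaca
*Ephb3*, chr16:21166102-21166142, minus strand: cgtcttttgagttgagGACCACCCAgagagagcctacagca
*Plxna4*, chr6:32261630-32261670, minus strand: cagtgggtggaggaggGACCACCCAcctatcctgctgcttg

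In none of the 8 was the core in an annotated untranslated region, and their positions relative to the genes fell into 3 kinds. At *Sema4b* and *Ntn3* the core was just upstream of the start of the gene, by 239 bp and 116 bp. At *Ntn1*, *Ntng1* and *Plxna4* it was deep in an intron, at 127.69, 132.61 and 326.54 kb downstream of the TSS. At *Efna2*, *Efnb3* and *Ephb3* it was outside the gene, at 26.9 kb upstream, 15.9 kb downstream and 38.6 kb upstream of the TSS, and in each of these 3 cases the TSS nearest to the site was that of another gene (*Midn*, *Dnah2* and *Teddm3*). The site upstream of *Ephb3* was also the one site of the 72 made mostly of repeated sequence, with 57.5% of its 32-base words found elsewhere in the genome.

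The cores at *Sema4b* and *Ntn3* are shown again with the sequence that leads from them to the TSS, because these were the guidance genes with a core within 250 bases upstream of their start. Each stretch starts 20 bases before the core, ends at the base before the gene-level TSS and reads in the direction of the gene. The core of *Ntn3* is on the opposite strand and appears as its reverse complement.
*Sema4b*, chr7:80186578-80186840, plus strand: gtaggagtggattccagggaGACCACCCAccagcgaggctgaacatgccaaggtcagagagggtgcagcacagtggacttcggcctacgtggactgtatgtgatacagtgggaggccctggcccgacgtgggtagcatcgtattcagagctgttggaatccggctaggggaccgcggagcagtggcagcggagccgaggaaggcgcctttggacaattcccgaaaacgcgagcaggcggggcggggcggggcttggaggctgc
*Ntn3*, chr17:24209532-24209671, minus strand: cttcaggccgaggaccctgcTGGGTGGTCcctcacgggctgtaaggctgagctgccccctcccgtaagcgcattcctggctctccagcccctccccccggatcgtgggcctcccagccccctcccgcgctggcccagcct

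The *Sema4b* stretch is 263 bases long with 18 CpG dinucleotides, and the *Ntn3* stretch is 140 bases long with 8. The gene starts are those of GENCODE. The RefSeq promoters of both genes, taken as 250 bases that end at a later start, stop just short of the core. *Sema4b* encodes a transmembrane semaphorin and *Ntn3* a secreted netrin.

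**Figure D1:**
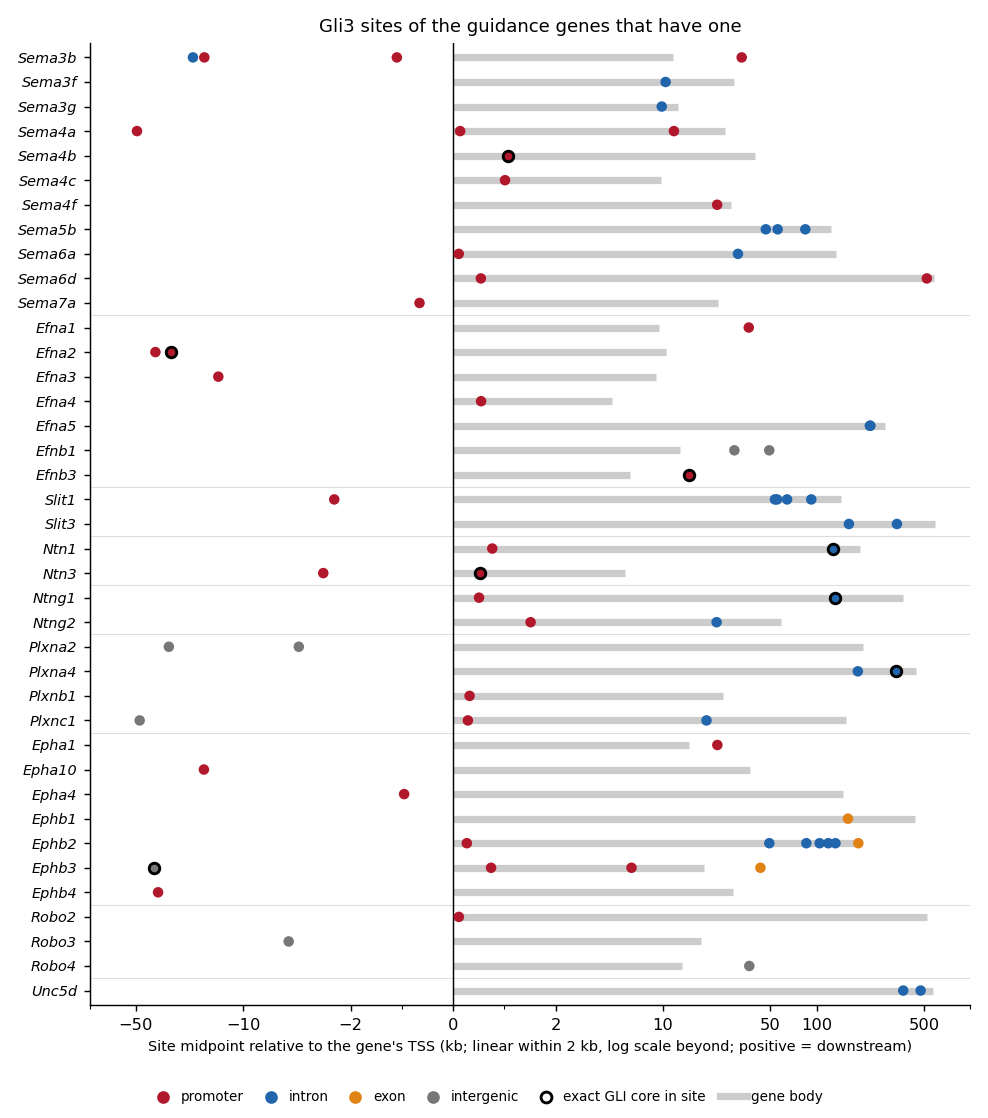
Midpoint of each Gli3 site relative to the gene-level TSS of the 39 guidance genes with a site (horizontal axis in kb, linear within 2 kb and logarithmic beyond, positive values downstream); grey bars are gene bodies, colours give the class of the site, and black rims mark sites with an exact GLI core. Of the 74 pairs of gene and site, 56 are downstream and 18 upstream of the TSS, 18 lie within 2 kb of it, and the 2 sites of *Efna5* overlie each other at this scale.

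Most sites of the guidance genes were downstream of the start. The rule itself favours this side, because it reaches 50 kb upstream but takes in the whole gene downstream. The split was not compared with that of other genes. Because 2 sites were each assigned to 2 neighbouring genes (*Efna3* and *Efna4*, *Robo3* and *Robo4*), the 72 sites made 74 pairs of gene and site. The midpoint was downstream of the TSS in 56 pairs and upstream in 18, and it was inside the gene in 48. The median distance was 29.9 kb, and 23 pairs were more than 50 kb apart, which is possible only inside a long gene. By the annotation at the midpoint, 34 of the 72 sites were promoter sites, within 2 kb of the TSS of any transcript, 28 were in introns, 7 were intergenic and 3 were in exons. Of the 29 nonpromoter sites inside a guidance gene, 24 were in introns 1 to 4 of the transcript with the longest span. The share of gene length that these introns make up was not determined, so the count has no comparison.

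Among the ligands, 24 of 37 genes (64.9%) had a site, against 25.2% of all protein-coding genes. Of the 36 genes in the receptor families 15 (41.7%) did, or 15 of 34 (44.1%) without *Unc50* and *Unc5cl*, which the name rule takes although they are not known as guidance receptors. Counting only sites whose nearest gene-level TSS of a protein-coding gene was that of the gene itself, the numbers were 20 and 11. Such a site was present at 11.8% of all protein-coding genes. Nearest genes are those by gene-level TSS here and below. No difference between ligands and receptors was tested. The families differed in how their sites lay, and are described in turn.

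**Figure D2:**
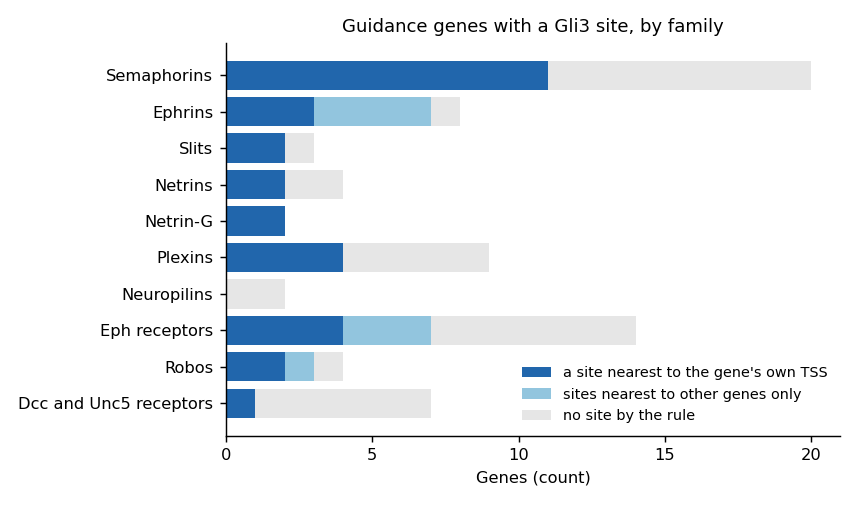
Number of guidance genes in each family (horizontal axis) with a Gli3 site nearest to their own TSS (dark blue), with sites nearest to other genes only (light blue) and with no site by the rule (grey). All 11 semaphorin genes with a site have one nearest to their own TSS, whereas 4 of the 7 ephrin genes, 3 of the 7 Eph receptor genes and 1 of the 3 Robo genes have only sites nearest to another gene.

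Semaphorins are secreted or membrane-bound cues that mostly repel axons. Of the 20 genes, 11 had a site, with 20 sites in all, and 7 had a site midpoint within 2 kb of their own TSS. In the secreted class 3, *Sema3b* (ENSMUSG00000057969.15) had 4 sites and *Sema3f* and *Sema3g* 1 each, whereas *Sema3a*, *Sema3c*, *Sema3d* and *Sema3e* had none. The site at chr9:107607626-107613029 covered the *Sema3b* TSS and was one of the 8 widest sites of the guidance genes, at 5404 bp. The other 3 were nearest to other genes. The sites at chr9:107626105-107628153 and chr9:107629809-107631103 lay closest to the *Gnai2* TSS, and the site at chr9:107576569-107576915 lay 185 bp from the *Hyal1* TSS and met the rule for 12 protein-coding genes. The *Sema3f* site was in intron 2, 10.4 kb downstream of the TSS, and the *Sema3g* site was in intron 15, 9.81 kb downstream. The TSSs of *Sema3b* and *Sema3f* are 101.25 kb apart, so by the rule the genes could not share a site.

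In class 4, whose members are transmembrane proteins, 4 of 6 genes had a site and 3 had one over the start. *Sema4a* (ENSMUSG00000028064.17) had 3 sites. The one at chr3:88460061-88462026 had its midpoint 138 bp downstream of the TSS, and that at chr3:88448896-88449915 was 11.8 kb downstream, near the start of a transcript with a retained intron. The third *Sema4a* site, at chr3:88509340-88511213, was 49.1 kb upstream and next to the *Lmna* TSS. *Sema4b* had 1 site, at chr7:80186030-80189781, with its midpoint 1064 bp downstream of the TSS and with the core shown above. The site of *Sema4c*, at chr1:36555478-36559194, was centred 1013 bp downstream of its TSS. *Sema4f* had the narrowest of the 72 sites, 331 bp wide and 22.5 kb downstream of the gene-level TSS, beside the start of a noncoding transcript of the gene. *Sema4d* and *Sema4g* had none.

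The remaining semaphorins with a site were *Sema5b*, *Sema6a*, *Sema6d* and *Sema7a*. *Sema5b* (ENSMUSG00000052133.16) had 3 sites, all in its introns, at chr16:35587041-35588477 and chr16:35596243-35597426 in intron 1 and at chr16:35624570-35626231 in intron 2, from 46.6 to 84.3 kb downstream of the TSS. *Sema6a*, which encodes a transmembrane semaphorin that binds class A plexins, had a site at chr18:47367960-47369559, centred 110 bp downstream of its TSS, and another at chr18:47337600-47338689, 30.7 kb downstream in intron 1. *Sema6d*, of the same class, had a site at chr2:124089753-124091270, centred 542 bp downstream of the gene-level TSS. Its other site, at chr2:124609037-124611474, was 520.29 kb downstream, but 40 bp from the start of a shorter coding transcript of *Sema6d*. *Sema7a* encodes a semaphorin anchored to the membrane by a lipid, and its site at chr9:57937846-57941065 covered the TSS. *Sema5a*, *Sema6b* and *Sema6c* had no site.

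Ephrins are membrane-bound ligands, of class A with a lipid anchor or of class B with a transmembrane segment. Of the 8 genes, 7 had a site, all but *Efnb2*, with 9 sites in all. For only 3 of them, *Efna4*, *Efna5* and *Efnb1*, was a site nearest to their own TSS. The ephrin genes were short, with a median length of 9.97 kb, and several lay among close neighbours. *Efna1*, *Efna3* and *Efna4* are on chromosome 3 with 41.8 kb between the first pair of TSSs and 15.1 kb between the second. The site at chr3:89336314-89338650 covered the *Efna4* TSS, with its midpoint 546 bp downstream, and was the one that *Efna3* shared, 14.5 kb upstream of its TSS. The *Efna1* site, 7174 bp wide and 31st in width among all sites, was 36.1 kb downstream of the *Efna1* TSS. By gene-level TSS it was nearest to *Krtcap2*, but its midpoint was at the start of a coding transcript of *Trim46*. *Efna2* had 2 sites upstream, nearest by gene-level TSS to *Cbarp* and *Midn*. The first had its midpoint in an untranslated region of *Atp5d*, 86 bp from the start of a coding transcript of that gene. The site at *Midn*, chr10:80144889-80155361, was 10473 bp wide and 4th in width among all sites. The core site assigned to *Efnb3*, chr11:69542946-69548129, lay 14.7 kb downstream of the TSS of that gene. The nearest gene-level TSS of a coding gene was that of *Dnah2*, 3.57 kb away, and a coding transcript of *Dnah2* starts 0.98 kb away.

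The other ephrin sites were far from any other coding start. *Efna5*, which encodes a class A ephrin that forms gradients in the developing brain, had 2 sites in intron 1, 298 bp apart, at 221.60 and 223.44 kb downstream of the TSS. *Efnb1*, on the X chromosome, had 2 intergenic sites 29.1 and 49.1 kb downstream of its TSS.

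Eph receptors are receptor tyrosine kinases that bind ephrins. Of the 14 genes, 7 had a site, with 16 sites in all, and the sites were uneven between the classes. In class B, which mostly binds the transmembrane ephrins, 4 of 5 genes had a site, and *Ephb6* had none. Of the 13 sites of class B, 7 were those of *Ephb2*. In class A, 3 of 9 genes (33.3%) had a site, with 1 each, and *Epha2*, *Epha3*, *Epha5*, *Epha6*, *Epha7* and *Epha8* had none. The share of all protein-coding genes was 25.2%. A site nearest to the own TSS was present at 3 class B genes and 1 class A gene. No difference between the classes was tested.

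*Ephb2* (ENSMUSG00000028664.14, chr4:136647539-136835988, minus strand) had 7 sites, all with their midpoint inside the gene. Of all protein-coding genes 0.0775% had 7 or more sites, and *Ephb2* was the 1 guidance gene to do so. The site at chr4:136834024-136837416 covered the TSS. The site at chr4:136785931-136787723 was in intron 1, 49.2 kb downstream. Intron 3 held 4 sites, at chr4:136749618-136751238, chr4:136731001-136732171, chr4:136716278-136717808 and chr4:136702286-136704924, between 85.6 and 132.38 kb downstream of the TSS. The last, at chr4:136649044-136650053, was in the 3′ untranslated region of the final exon, 186.44 kb downstream. For 4 of the 7 sites the nearest gene-level TSS of a coding gene was that of *Ephb2*. For the 3 farthest it was that of *Lactbl1*, which lies beyond the other end of *Ephb2*. The sites at chr4:136716278-136717808 and chr4:136702286-136704924 were, however, closer to the start of a shorter coding transcript of *Ephb2*, at 23.0 and 9.57 kb.

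The 7 sites of *Ephb2* held no exact GLI core. With 1 mismatch allowed there were 13 matches in 6 of them, and the 2 matches in the site over the TSS are given because they are the closest to the start. The first is 1.04 kb upstream and the second 0.486 kb downstream of the TSS, both on the plus strand of the chromosome with 10 bases on either side, and the capitals mark the match.
*Ephb2* upstream match, chr4:136837010-136837038: atcctgcgggAACCACCCAggcagggccc
*Ephb2* downstream match, chr4:136835488-136835516: gcagtggtaaGACCCCCCAgccctgggcg

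They differ from the core by G1A and A5C, where positions are counted from 1 at the 5′ end of the core and the base of the core stands first. Matches of this kind were also present in 45.8% of the regions beside the sites of the guidance genes.

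*Ephb3* (ENSMUSG00000005958.15), which encodes a receptor closely related to Ephb2, had 4 sites. That at chr16:21204337-21206656 covered the TSS, with its midpoint 741 bp downstream. The site at chr16:21210566-21211416 was 6.24 kb downstream and 104 bp from the start of a shorter coding transcript. The site at chr16:21245330-21250217 lay beyond the gene, 43.0 kb downstream of the TSS, in an exon of the noncoding gene *Gm16863*. The site with a core and repeated sequence described above, at chr16:21165635-21168065, was upstream. *Ephb1* had 1 site, 4565 bp wide, whose midpoint was in the coding sequence of exon 3, 159.69 kb downstream of the TSS. The 1 site assigned to *Ephb4* was at the *Trip6* promoter, 35.8 kb upstream of the *Ephb4* TSS.

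*Epha4*, a receptor that binds ephrins of both classes, was the 1 class A gene with a site at its own start. The site, at chr1:77514280-77517808, covered the TSS, with its midpoint 0.956 kb upstream. That midpoint was in an exon of the noncoding gene *Gm28386*, 764 bp from a start of that gene. The sites of *Epha1* and *Epha10* were at the promoters of *Zyx* and *Maneal*, 22.6 kb downstream and 18.02 kb upstream of their TSSs.

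**Figure D3:**
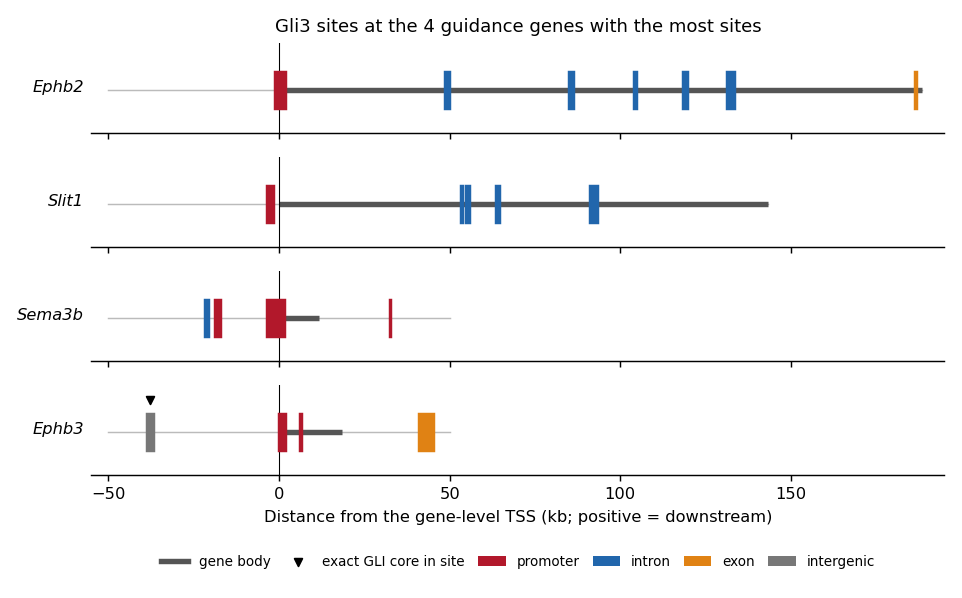
Positions and widths, to scale, of the Gli3 sites at the 4 guidance genes with the most sites, as distance from the gene-level TSS in kb; the thick line is the gene body, the thin line the remaining 50 kb on each side, colours give the class of the site and the triangle marks a site with an exact GLI core. The 7 sites of *Ephb2* are inside the gene, 4 of the 5 sites of *Slit1* are between 53.4 and 92.1 kb downstream of the TSS, and the midpoints of all 4 sites of *Sema3b* and of 2 of the 4 sites of *Ephb3* are outside the gene.

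Slits are large secreted proteins that repel axons through Robo receptors. *Slit1* (ENSMUSG00000025020.11, chr19:41600257-41743665, minus strand) had 5 sites, and 0.173% of all protein-coding genes had as many or more. Of the guidance genes 2 did, the other being *Ephb2*. The site at chr19:41745078-41747367 was 2.56 kb upstream of the TSS. It counted as a promoter site because of the small noncoding RNA gene *Gm22601*. Intron 4 held 3 sites, at chr19:41689831-41690630, chr19:41687760-41689269 and chr19:41678809-41680249, and the first 2 were 561 bp apart. The fifth, at chr19:41650243-41652823, was in intron 6, 92.1 kb downstream. None of the 5 held an exact core. *Slit3* had 2 sites, both in intron 4, at 161.96 and 332.44 kb downstream of its TSS, and *Slit2* had none.

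Of the Robo genes, *Robo2* had a site at chr16:74411096-74412329 that covered its TSS, with the midpoint 112 bp downstream. *Robo3*, which acts in axons that cross the midline, and *Robo4*, known from blood vessels, shared an intergenic site, 5.06 kb upstream of the *Robo3* TSS and 36.4 kb downstream of the *Robo4* TSS. *Robo1* had none.

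Netrins are secreted cues related to laminin. *Ntn1* had a site at chr11:68398750-68401367, which covered the TSS with its midpoint 764 bp downstream, and a second at chr11:68272446-68275116 in intron 4, which held the core shown above. *Ntn3* had a site over its TSS at chr17:24207969-24210063, also with a core, and another at chr17:24211502-24213588, 3.01 kb upstream and 25 bp from the start of the antisense gene *BC028777*. *Ntn4* and *Ntn5* had none. Among the netrin receptor genes *Dcc*, *Unc5a*, *Unc5b*, *Unc5c* and *Unc5d*, 1 of 5 had a site. It was *Unc5d*, with 2 sites in introns 3 and 7, 365.29 and 474.02 kb downstream of the TSS. *Dcc*, the longest of the genes at 1097 kb, *Unc5a*, *Unc5b* and *Unc5c* had none. *Unc50* and *Unc5cl* had no site either. Without these 2 genes 39 of 71 (54.9%) had a site.

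Both netrin-G genes had a site at their start and another inside the gene. The *Ntng1* site at chr3:110141653-110145356 was centred 506 bp downstream of the TSS, and that at chr3:110010861-110012303, in intron 2, held a core 178 bp from its centre. The *Ntng2* site at chr2:29249253-29253732 was 4480 bp wide and covered the TSS, and the other *Ntng2* site was in intron 1, 22.3 kb downstream.

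Plexins are the receptors of semaphorins. Of the 9 genes, 4 had a site, with 8 sites in all. *Plxnc1* (ENSMUSG00000074785.5), whose protein binds Sema7a, had 3 sites, at chr10:94940331-94948763 over the TSS, at chr10:94924485-94926824 in intron 1 and at chr10:94990668-94993323, 47.2 kb upstream. The first was 8433 bp wide and 13th in width among all sites, and its midpoint was in coding sequence of exon 1. *Sema7a* and *Plxnc1*, a ligand and its receptor, therefore both had a site over the TSS, but such pairs were not compared as a set. *Plxnb1*, the receptor of Sema4d, had a site at chr9:109094781-109096640 over its TSS, whereas *Sema4d* had no site. *Plxna2* had 2 intergenic sites 30.5 and 4.35 kb upstream, and *Plxna4* had sites in introns 3 and 4, the second of which, at chr6:32260969-32262616, held the core shown above. *Plxna1*, *Plxna3*, *Plxnb2*, *Plxnb3* and *Plxnd1* had none, and neither had *Nrp1* and *Nrp2*, which encode the coreceptors of the class 3 semaphorins.

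The shares of the guidance genes were compared with those of all protein-coding genes by several readings, none of them tested, since the genes were chosen with earlier results of these data known. At least 3 sites were present at 7 of the 73 genes (9.59%), namely *Ephb2*, *Slit1*, *Ephb3*, *Sema3b*, *Plxnc1*, *Sema4a* and *Sema5b*, against 1.55% of all genes. A site midpoint within 2 kb of the gene's own TSS was found at 18 (24.7%) against 6.88%, and a site covering that TSS also at 18 against 6.22%. The 18 were *Ephb2*, *Ephb3*, *Epha4*, *Efna4*, *Ntn1*, *Ntn3*, *Ntng1*, *Ntng2*, *Plxnb1*, *Plxnc1*, *Robo2*, *Sema3b*, *Sema4a*, *Sema4b*, *Sema4c*, *Sema6a*, *Sema6d* and *Sema7a*. A site with its midpoint inside the gene was present at 25 (34.2%) against 8.88%, and a site with an exact core at 8 (10.96%) against 3.77%. When each site counted only for the gene with the nearest TSS, 31 guidance genes (42.5%) had one, against 11.8%.

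Guidance genes are long, with a median of 56.6 kb against 17.4 kb for all protein-coding genes, and 65.8% of them had a CpG-rich promoter against 44.4%. Among genes under 50 kb, 22 of 36 guidance genes (61.1%) had a site against 24.3% of all genes. Between 50 and 150 kb it was 5 of 12 (41.7%) against 25.2%, and at 150 kb or more it was 12 of 25 (48%) against 35.4%. The Wilson intervals of the latter 2 classes included the share of all genes. Counting nearest genes only, the shares were 38.9% against 9.37%, 41.7% against 17.5% and 48% against 26.1% in the same order. With a CpG-rich promoter, 25 of 48 guidance genes (52.1%) had a site against 33%, and with a CpG-poor promoter 14 of 25 (56%) against 19%. At the gene's own start the numbers were 13 of 48 (27.1%) against 12.2% and 5 of 25 (20%) against 2.65%. By the median the surroundings of guidance genes were sparse, with 0 other coding TSSs within 50 kb against 2 for all genes. Some sites were in crowded places, however. Of the 72 sites, 15 met the rule for 5 or more protein-coding genes, and the most at a site was 12. The part of length, promoter class and neighbours in the higher shares was not tested.

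**Figure D4:**
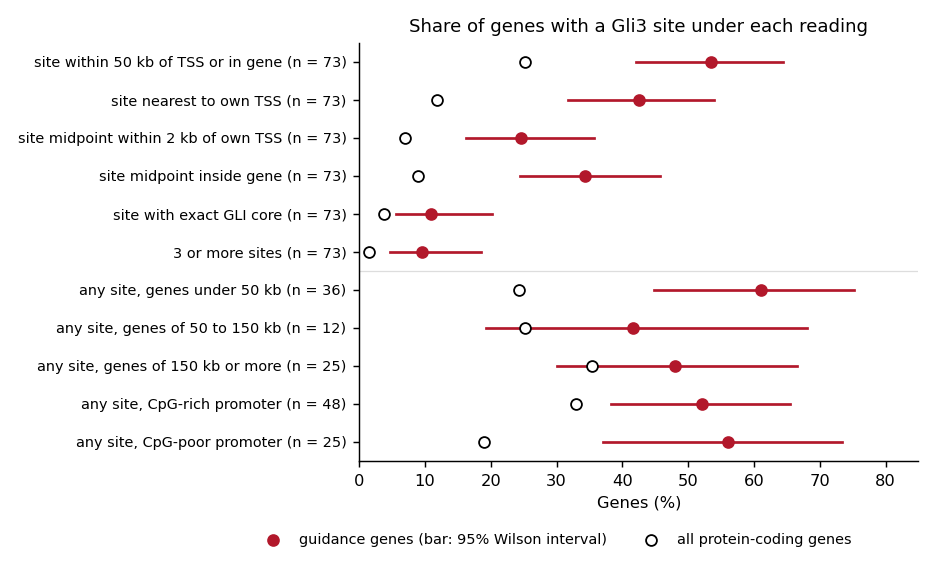
Percent of the guidance genes (red, with 95% Wilson intervals) and of all protein-coding genes (open circles) with a Gli3 site under 6 readings and, below the line, within classes of gene length and promoter type. The red point is to the right of the open circle in each row, and in the classes of 50 to 150 kb and of 150 kb or more the interval includes the open circle.

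Per length of sequence, the windows of the guidance genes held 4.27 sites per Mb, or 72 sites in 16.9 Mb, against 2.15 per Mb over the windows of all protein-coding genes. Within 50 kb of the TSS alone the values were 6.91 and 2.53 per Mb. The intervals given for genes cover counting error only, and neighbouring genes can share a site.

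The 72 sites were then set beside the other sites of the list in width, position and sequence, without a test. The median width was 1920 bp against 1996 bp for the 4027 other sites on the chromosomes, and 8 of the 72 (11.1%) were at least 4 kb wide against 10.3%. Promoter sites made up 47.2% (95% Wilson interval 36.1 to 58.6%) against 45.6%. The other sites include those far from any gene, and among the 3291 of them that met the same rule for a protein-coding gene 53.8% were promoter sites, more than at the guidance genes. The median GC content was 53.7% against 51.3%. An exact GLI core, on either strand, was present in 8 of the 72 sites (11.1%, interval 5.74 to 20.4%), in 12.3% of the other sites and in 7 of 144 flanks of the same length (4.86%, interval 2.37 to 9.69%). The intervals of the sites and of their flanks overlapped, and 9 of the flanks overlapped a listed site.

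With 1 mismatch allowed, the core was in 73.6% of the sites of the guidance genes, 64.6% of the other sites and 45.8% of the flanks. The median distance of the 8 exact cores from the centre of their site was 690 bp. Of them, 2 (those of *Ntng1* and *Plxna4*) were in the middle when a site is divided into 3 equal parts, and the central 200 bp of the 72 sites held none, which allows a share of up to 4.17% by 3 counts of the total and of up to 5.07% by the Wilson interval. In the other sites the core was in the central 200 bp of 1.71%, so a difference was not detectable with this number of sites. Of 3 further motifs searched on both strands, the SP motif GGGCGGGG was in 44.4% of the sites (interval 33.5 to 55.9%), 33.6% of the other sites and 15.97% of the flanks. The basic helix-loop-helix motif CAGCTG was in 66.7%, 68.7% and 67.4%, and the homeodomain motif TAATTA in 41.7%, 38.1% and 31.9%. A match is a description of the sequence and no evidence of binding by a factor.

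**Figure D5:**
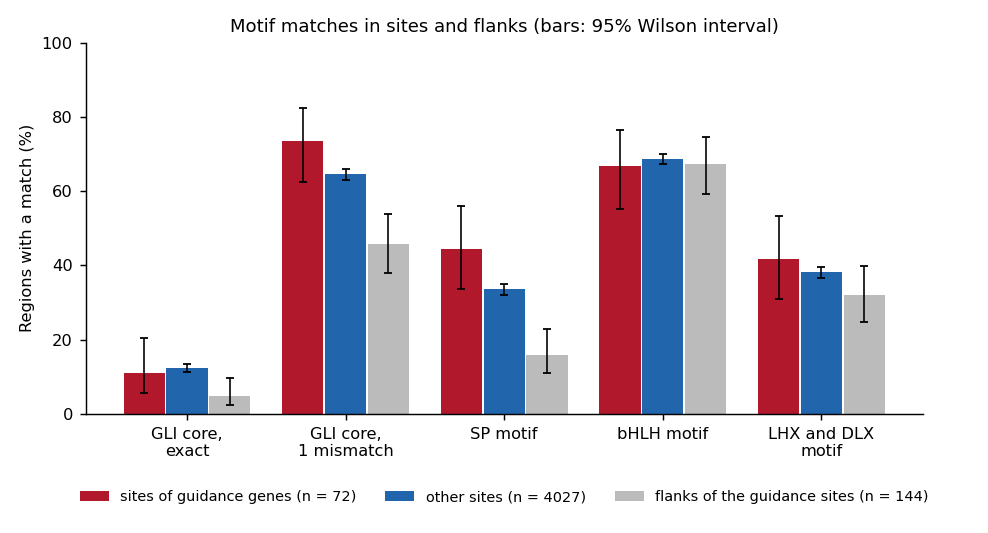
Percent of the 72 sites of guidance genes, the 4027 other sites and the 144 flanks with at least 1 match to each motif (vertical axis), with 95% Wilson intervals. The exact GLI core stands at 11.1, 12.3 and 4.86%, and the SP motif at 44.4, 33.6 and 15.97%.

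Nearness to a guidance gene did not make it the nearest gene. For 53 of the 72 sites (73.6%) the nearest gene-level TSS of a coding gene was that of a guidance gene, and for the other 19 it was that of another gene. Of these 19, 11 were promoter sites. The nearest gene was *Lactbl1* for 3 of them, *Gnai2* for 2, and 1 each for *1700012A03Rik*, *Cbarp*, *Dnah2*, *Gm340*, *Hyal1*, *Krtcap2*, *Lmna*, *Maneal*, *Midn*, *Pank3*, *Slc24a5*, *Teddm3*, *Trip6* and *Zyx*. The *Lactbl1*, *1700012A03Rik*, *Gm340*, *Pank3* and *Slc24a5* sites were inside the long genes *Ephb2*, *Plxna4*, *Slit1*, *Slit3* and *Sema6d*. By the starts of all transcripts, coding or not, these sites were closest to their host guidance gene, except the *Lactbl1* site in the final exon of *Ephb2*. There were 8 guidance genes all of whose sites were nearest to another gene, namely *Efna1*, *Efna2*, *Efna3*, *Efnb3*, *Epha1*, *Epha10*, *Ephb4* and *Robo4*. Which gene a site acts on was not measured.

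A list of 80 further genes of axon guidance, with cues and receptors, adhesion molecules and cytoplasmic effectors, was read in the same way. A site was present at 38 of them (47.5%), against 25.2% of all protein-coding genes, and 11 had one at their own start, where the share of all genes was 6.88%. By role it was 10 of 22 cues and receptors, 9 of 14 adhesion molecules and receptor phosphatases, and 19 of 44 effectors. These 3 groups had median lengths of 30.1, 256.35 and 116.58 kb. The 22 cues and receptors include the Sonic hedgehog pathway genes *Ptch1*, *Boc*, *Cdon*, *Smo* and *Shh*, and all of these but *Shh* had a site. At least 3 sites were found at 8 of the 80 genes, against 1.55% of all genes. The Sonic hedgehog receptor gene *Ptch1* had 7, the same number as *Ephb2*, and 3 of them held an exact core. *Rgma*, which encodes a repulsive cue bound by neogenin, had 5, and *Boc*, a Sonic hedgehog coreceptor gene, and *Draxin*, which encodes a secreted repellent, had 4 each. *Flrt1*, *Mical1*, *Mical2* and *Ptprs* had 3 each.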

How the data were processed

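The authors sequenced paired ends of 3 Gli3 ChIP libraries and 3 input libraries from dissected cortices. Per the header of the deposited list and the submitters' processing notes, which name Bowtie2, SAMtools and MACS2 without versions, ends of 85 bases were filtered for repeats and mapped to mm10, and peaks were kept from the optimal set by irreproducible discovery rate. The thresholds are not given in the sources used here. The deposited values are positions, from which no signal or fold can be recovered. Depth is unknown, so no precision per site can be given.

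The 0-based starts were shifted to 1-based. GRCm38.p6, the same assembly as mm10, supplied the sequence and GENCODE M21 the genes, where the gene-level TSS is the 5′ end of the gene record. The RefSeq promoters are stretches of 250 bases from GRCm38.p6. The 15 sites on scaffolds were left out of the comparisons of sequence. A promoter was CpG-rich where the 500 bp on either side of the TSS had a GC content over 50% and an observed to expected CpG ratio over 0.6. Flanks, 2 per site, had the length of the site and started 1 site length from its edges. Repeated words were counted every 10 bases. Shares have 95% Wilson intervals, and no test was made because 1 joined list has no replicates. The search for the GLI core was tested on simulated sequences with planted cores, and the assignment of sites to genes was not.

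The genes and lists were chosen with earlier results of these data known. Every guidance gene with a site is named, with positions for those with 3 or more sites, an exact core or a site within 2 kb of their TSS, and those without a site are named by family. Other genes are named where their gene-level TSS is nearest to a site. Some, but not all, that host a site or have a transcript start beside it are named as well. From the further list, genes with 3 or more sites or of the Sonic hedgehog pathway are named. Software was python 3.11.15, numpy 2.4.6, scipy 1.17.1, numba 0.67.0 and matplotlib 3.10.9.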

Additional observations from a re-analysis of the deposited data

How the results depend on the processing

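The count of guidance genes with a site stayed within 1.5 times of 39 for windows of 20 kb (33, or 45.2% against 16.1% of all genes) and 100 kb (45, 61.6% against 37.4%), within 50 kb of the TSS only (34, 46.6% against 23.5%), by any overlapping base (39, against 25.5%), for nearest genes only (31, 42.5% against 11.8%), with sites within 1 kb joined (39, against 25.2%) and without mostly repeated sites (39, against 24.7%). With nonpromoter sites only it was 21 genes (28.8% against 9.16% of all genes) and 38 sites. The share of sites with a GLI core was 73.6% with 1 mismatch allowed and 0% in the central 200 bp. The share at promoters was 33.3% with windows reaching 2 kb upstream only, against 29.6% of other sites and 35.2% of the other sites that met the rule for a coding gene. Sites per Mb were 6.91 within 50 kb of the TSS only. No paired analysis was possible because the replicates were joined into 1 list, and leaving out a replicate was not possible for the same reason. Absence from the list can reflect the depth or the thresholds, which are unknown.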
